A study of Mus musculus with 48 samples.

Results

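The members were 32 genes of the fibroblast growth factor (FGF) pathway, made up of 20 ligands, 4 receptors and 8 feedback genes that are switched on by ERK signalling. They were followed through every accessible region within 50 kb of their RefSeq transcription start sites (mm10). Joining the peaks of the 4 deposited lists where they shared 1 bp or more yielded 287329 regions in total, and 414 of them lay in these windows. The member windows held 358 peaks with SB-431542, 337 after 1 h Activin, 345 after 8 h Activin and 342 in untreated cells.

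The assay was ATAC-seq on P19 cells, a mouse embryonic teratoma line, with 100000 cells per transposition reaction. SB-431542 blocks the kinases through which Activin and NODAL signal, and was given overnight at 10 µM, washed out, and added back for 1 h in the SB-431542 state. In the 2 Activin states the same overnight inhibition was followed by Activin A at 20 ng/ml for 1 h or 8 h. Untreated cells received neither agent and signalled through the NODAL and GDF3 that they make themselves. All states therefore came from the same cell line, and the 3 treated states all carried the overnight inhibition.

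The labels give 48 libraries, 12 for each state, from 2 biological replicates of 6 libraries. The study's methods describe fewer sequenced samples than the labels list, so the number of libraries behind each list is uncertain. The authors merged all libraries of a state before calling peaks, so each state is represented by 1 list. The spread between replicates cannot be seen in these lists, no difference between states was tested, and every comparison below sets 1 merged list against another. The lists held 234758, 233336, 209212 and 220004 peaks for SB-431542, then 1 h Activin, then 8 h Activin, then untreated cells, the order used for all series of 4 values below. Their background read density, worked back from the peak scores, was 92.6%, 79.0% and 84.8% of that with SB-431542, so the SB-431542 list was the deepest. The contribution of this depth difference to peaks found with SB-431542 alone was not tested. Promoters of 7 of 8 pluripotent cell markers, *Pou5f1*, *Sox2* and *Nanog* among them, had a peak in every list, and the exception, *Dppa4*, had one in some lists. Among 10 markers of other cell types, 4 promoters (*Ptprc*, *Myod1*, *Rbfox3* and *Col1a1*) had a peak in every list, 5 had none and 1 had a peak in some lists.

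FGF ligands bind receptor tyrosine kinases of the FGFR family together with heparan sulphate or Klotho co-receptors, and the receptors pass the signal through RAS to ERK. ERK then induces its own inhibitors: Sprouty and SPRED proteins act on RAS and RAF, the phosphatase DUSP6 removes phosphate from ERK, and ETV4 and ETV5 are ETS transcription factors that carry the transcriptional output. In pluripotent cells FGF4 is the main autocrine ligand and drives exit from the naive state, while FGF5 marks primed cells and FGF8 works with NODAL in gastrulation. The FGF11 subfamily stays inside the cell and binds sodium channels, and FGF15, FGF21 and FGF23 act as hormones.

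Sequences are given for regions with large differences between the lists and for the upstream parts of 2 promoters. Each region is shown as the 300 bases at its centre, from the GRCm38.p6 assembly, which is mm10. Each promoter is shown as the 250 bases before the RefSeq start site. Capitals mark matches, on either strand, to 13 short motifs listed after the sequences. The first 4 were stronger or gained after Activin, the next was gained close to a ligand promoter, and the 2 after it were weaker.
Spred1, 17.3 kb upstream, chr2:117103382-117103681, plus strand: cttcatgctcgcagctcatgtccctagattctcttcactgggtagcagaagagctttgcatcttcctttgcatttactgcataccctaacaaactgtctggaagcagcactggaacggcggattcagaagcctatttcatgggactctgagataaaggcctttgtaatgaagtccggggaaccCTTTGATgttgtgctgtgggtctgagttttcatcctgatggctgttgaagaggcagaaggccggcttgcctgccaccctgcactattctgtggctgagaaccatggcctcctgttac
Fgfr1, intron, 2.66 kb downstream, chr8:25521443-25521742, plus strand: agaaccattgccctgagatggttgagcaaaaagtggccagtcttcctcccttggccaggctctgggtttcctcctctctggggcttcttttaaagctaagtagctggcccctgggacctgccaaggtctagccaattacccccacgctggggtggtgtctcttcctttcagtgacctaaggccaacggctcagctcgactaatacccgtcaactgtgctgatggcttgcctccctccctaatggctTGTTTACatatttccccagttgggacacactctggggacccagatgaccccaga
Etv4, 16.0 kb upstream, chr11:101801374-101801673, plus strand: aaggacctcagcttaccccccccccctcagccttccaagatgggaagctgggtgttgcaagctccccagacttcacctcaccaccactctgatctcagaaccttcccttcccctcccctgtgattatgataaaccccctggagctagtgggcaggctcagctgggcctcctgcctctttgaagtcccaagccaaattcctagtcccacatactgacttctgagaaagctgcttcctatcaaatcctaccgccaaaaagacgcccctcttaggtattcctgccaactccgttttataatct
Fgf10, intron, 46.7 kb downstream, chr13:118761351-118761650, plus strand: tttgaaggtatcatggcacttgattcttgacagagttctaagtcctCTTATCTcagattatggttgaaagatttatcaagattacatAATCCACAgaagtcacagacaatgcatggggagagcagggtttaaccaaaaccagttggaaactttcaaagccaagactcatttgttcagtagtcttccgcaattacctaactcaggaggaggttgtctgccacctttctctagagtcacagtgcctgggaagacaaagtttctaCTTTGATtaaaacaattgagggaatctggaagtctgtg
Fgf17, 1.12 kb upstream, chr14:70643377-70643676, plus strand: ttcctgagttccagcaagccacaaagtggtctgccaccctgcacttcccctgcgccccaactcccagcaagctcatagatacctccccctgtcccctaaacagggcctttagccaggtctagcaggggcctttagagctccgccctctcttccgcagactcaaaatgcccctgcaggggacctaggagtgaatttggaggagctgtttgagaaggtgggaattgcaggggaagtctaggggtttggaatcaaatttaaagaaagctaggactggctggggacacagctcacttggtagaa
Spry2, 44.8 kb downstream, chr14:105851418-105851717, plus strand: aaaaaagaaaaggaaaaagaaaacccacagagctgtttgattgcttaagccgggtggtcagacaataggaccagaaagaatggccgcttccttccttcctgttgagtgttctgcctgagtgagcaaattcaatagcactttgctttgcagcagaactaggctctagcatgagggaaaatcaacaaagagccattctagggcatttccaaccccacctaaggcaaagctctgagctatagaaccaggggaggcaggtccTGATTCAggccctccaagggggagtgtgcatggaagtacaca
Fgfr2, 42.1 kb upstream, chr7:130309237-130309536, plus strand: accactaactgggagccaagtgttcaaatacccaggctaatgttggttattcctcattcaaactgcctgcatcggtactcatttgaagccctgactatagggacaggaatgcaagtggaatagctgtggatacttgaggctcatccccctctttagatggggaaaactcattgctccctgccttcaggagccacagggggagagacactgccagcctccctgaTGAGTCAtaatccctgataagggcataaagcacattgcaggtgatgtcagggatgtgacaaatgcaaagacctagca
Fgf7 promoter, chr2:126034408-126034657, plus strand: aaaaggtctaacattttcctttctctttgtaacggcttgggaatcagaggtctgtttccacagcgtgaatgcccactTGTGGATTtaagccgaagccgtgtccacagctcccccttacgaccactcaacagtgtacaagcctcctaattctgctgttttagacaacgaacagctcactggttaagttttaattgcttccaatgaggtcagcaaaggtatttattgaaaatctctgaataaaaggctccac
Dusp6 promoter, chr10:99262981-99263230, plus strand: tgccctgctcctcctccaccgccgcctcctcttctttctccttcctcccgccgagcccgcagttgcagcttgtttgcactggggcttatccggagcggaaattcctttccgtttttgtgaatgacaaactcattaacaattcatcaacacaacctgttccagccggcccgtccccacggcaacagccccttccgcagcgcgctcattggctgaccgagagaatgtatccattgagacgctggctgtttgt

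The capitals in the *Spred1* window are a TCF/LEF string, and those in the *Fgfr1* window are a FOX string. The *Fgf10* window held a GATA string, a FOXH1 string and a TCF/LEF string in that order. The *Spry2* and *Fgfr2* windows, from the 2 weakened regions, each held an AP-1 string. The *Fgf7* promoter held a FOXH1 string on its minus strand, while the *Etv4* and *Fgf17* windows and the *Dusp6* promoter held none of the 13.

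The motifs searched were AATCCACA for FOXH1, GTAAACA for FOX factors, GTCTAGAC for the SMAD palindrome, CCGGAAGT for ETS factors and TGANTCA for AP-1. TGACGTCA stood for CRE, ATCAAAG for TCF/LEF, CATTCCA for TEAD, ATGCAAAT for the octamer and CCATTGTT for SOX. CCTGCTG stood for ZIC, AGATAAG for GATA and GGGGCGGGG for the GC box. None of these strings contains another. In the central 300 bases, AP-1 was matched in 12.8% of the 414 member regions and 11.7% of the 117578 regions within 50 kb of any protein-coding start site. For FOXH1 the shares were 1.21% and 1.17%, for TCF/LEF 5.07% and 4.55%, for FOX 4.35% and 3.97%, for TEAD 6.76% and 5.16% and for GATA 4.35% and 3.77%. ZIC was matched in 11.6% of member regions against 13.6%, the GC box in 3.38% against 3.16%, the octamer in 3.86% against 2.36% and SOX in 1.69% against 1.40%. The ETS string was found in 1.21% against 0.879%, CRE in 0.966% against 0.422% and the SMAD palindrome in 0.242% against 0.282%. Most of these shares were near those around all coding genes, with the CRE and octamer strings the furthest above them in ratio, at 4 and 16 member regions.

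RefSeq promoter windows, from 250 bases before to 50 after the start site, were at hand for 24 members and 16853 protein-coding genes. For a gene with several start sites the highest GC content and CpG count were taken. Median GC content was then 62.7% in the members and 57.7% over all genes, with medians of 18.5 and 15 CpG dinucleotides. FOXH1 was matched in 1 member promoter (*Fgf7*; 4.17% against 0.943% of all), and the GC box in 4, those of *Fgf2*, *Fgf5*, *Fgf10* and *Fgf22* (16.7% against 17.8%). ETS, CRE, SOX, ZIC and SMAD palindrome strings had no match in the member promoters. Over all coding genes 5.87% of promoters held the ETS string and 12.1% the ZIC string.

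Promoters were examined first. A promoter was taken as the 1000 bp before a start site and the 100 bp after it, and it was called open where a peak overlapped it. In all 4 lists 31 of the 32 members had an open promoter, beside 71.2% of 21000 protein-coding genes. The exception was *Fgf6*, a ligand known for its expression in skeletal muscle, whose promoter had no peak in any list. The counts were 19 of 20 ligands, 4 of 4 receptors and 8 of 8 feedback genes, and none differed between the states. With a minimum −log10 q of 5 the 8 h Activin list had 30 open promoters and the other lists 31. The *Fgf21* promoter peak after 8 h Activin had a −log10 q of 2.215. When the peak had to cover the start site itself, 25 members kept the call in every list, beside 68.5% of coding genes. The start sites of *Fgf6*, *Fgf7*, *Fgf9*, *Fgf11* and *Spry2* were not covered in any list, that of *Fgf21* was covered after 8 h Activin and in untreated cells alone, and that of *Fgfr2* was uncovered after 1 h Activin alone.

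Member promoters were open but of modest fold enrichment. Fold enrichment is the mean read density of a peak over its local background, as MACS2 writes it. The strongest promoter peak of a member had a median fold enrichment of 3.18, 3.16, 3.08 and 3.20 in the 4 lists. Over all 14955 coding genes open in every list the medians were 4.64, 4.46, 4.40 and 4.30. A lower ratio need not mean fewer reads, since the local background differs between regions. After 8 h Activin the *Spred1* promoter, at 3.19, had an estimated local background of 112 reads and an estimated pileup of 361. A region 17.3 kb upstream of *Spred1*, at 5.13 in the same list, had 24.2 and 128. Because the value is a mean over the peak, a peak that a list splits or narrows can have a higher value with no more reads, and peak lengths are given beside some of the values. Promoter peak lengths that are not given below differed by over 1.5 times between lists for *Fgf5*, *Fgf11*, *Fgf15*, *Fgfr1* and *Fgfr4*.

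**Figure D1:**
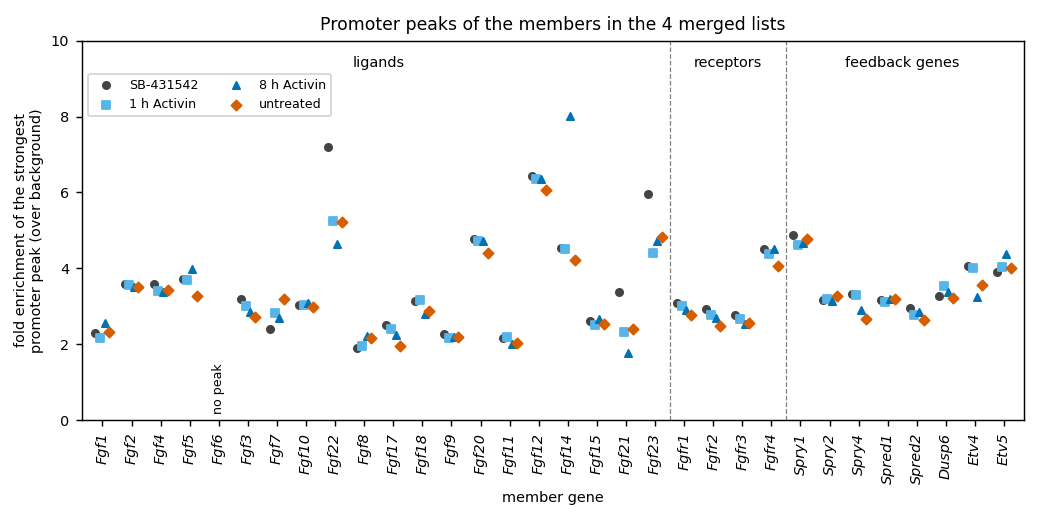
Fold enrichment of the strongest promoter peak (vertical axis, ratio over local background) of each member in the 4 merged lists, with 1 point per list and no error bars, since each list merges the replicates. The lists sit close together for most genes, *Fgf22*, *Fgf23* and *Fgf21* were highest with SB-431542, and the 8 h Activin point of *Fgf14* at 8.02 comes from a peak that this list alone divides in 2.

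Among the ligands, *Fgf4* had promoter values of 3.58, 3.41, 3.37 and 3.44. *Fgf2*, the other ligand widely used to culture pluripotent cells, stood at 3.58, 3.55, 3.50 and 3.51. *Fgf5* ranged from 3.28 in untreated cells to 3.98 after 8 h Activin. The fold enrichment of *Fgf4* and *Fgf2* differed little between the lists. At the *Fgf5* promoter the estimated pileup was 393, 323, 454 and 352 reads, not adjusted for depth. It too was highest after 8 h Activin, although that list had the lowest background read density. The cause of this difference was not tested.

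The *Fgf8* promoter was among the lowest in fold enrichment, at 1.91 with SB-431542, 1.95 after 1 h Activin, 2.22 after 8 h Activin and 2.16 in untreated cells. Its percentile, meaning its rank among the 162505 regions of the whole series that every list shares, stood at 16.1 in the SB-431542 list and 33.6 after 8 h Activin. The peak over the promoter was 2608 bp long with SB-431542 and 981 bp after 8 h Activin, when the region held 2 peaks, but 2609 bp in untreated cells, where the percentile was 30.5. *Fgf17*, of the same subfamily, had values of 2.50, 2.39, 2.24 and 1.95, lowest in untreated cells. *Fgf18*, its other member, stood between 2.79 and 3.16 in every list.

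*Fgf7*, a ligand that acts on epithelium through an FGFR2 splice form, was the ligand promoter with the largest upward shift. It had values of 2.39, 2.81, 2.70 and 3.20, and moved from percentile 40.2 with SB-431542 to 66.0 in untreated cells. The promoter peak lengths were 1634, 1171, 917 and 1276 bp. *Fgf10*, of the same subfamily, lay between 2.98 and 3.08, and *Fgf3* between 2.73 and 3.18 with its highest value under SB-431542.

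The endocrine ligand *Fgf21* had the largest percentile shift of any member promoter, though not the largest difference in fold enrichment. Its region, chr7:45615240-45617336, also covers the promoter of *Fut1*, a fucosyltransferase gene. Fold enrichment was 3.39 with SB-431542, 2.32 after 1 h Activin, 1.78 after 8 h Activin and 2.40 in untreated cells, and the percentiles were 67.7, 43.1, 7.39 and 41.7. All 3 signalling lists were thus below the SB-431542 list, and the peak was 1309, 1516, 1275 and 2097 bp long. *Fgf22* stood at 7.21, 5.26, 4.64 and 5.22 and *Fgf23* at 5.95, 4.42, 4.71 and 4.83. In both, the SB-431542 peak was the shortest, at 677 bp against 1293 to 1406 bp for *Fgf22* and at 805 bp against 1306 to 1383 bp for *Fgf23*. *Fgf15*, the remaining endocrine ligand, lay between 2.50 and 2.67.

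*Fgf1* was at 2.29, 2.16, 2.55 and 2.33 and *Fgf9* between 2.17 and 2.28, both low in every list. *Fgf20*, also of the FGF9 subfamily, was at 4.77, 4.71, 4.71 and 4.40. Of the intracellular FGFs, *Fgf12* had 3 promoter regions and a highest value between 6.06 and 6.42, and *Fgf11* lay between 2.00 and 2.19. *Fgf14* had 2 promoter regions, of which the first stood at 4.55, 4.50, 4.50 and 4.21. The other stood at 4.50, 4.27, 8.02 and 3.78, where the 8 h Activin list had 2 peaks covering 1789 bp in place of 1 peak of 2910 to 2985 bp.

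Receptor promoters had their highest fold enrichment with SB-431542 in all 4 genes, by small amounts, but their percentiles were 1.1 to 3.24 points higher after 1 h Activin than with SB-431542. *Fgfr1* had values of 3.10, 2.99, 2.90 and 2.77. *Fgfr2* had 2.94, 2.76, 2.68 and 2.48, and *Fgfr3* had 2.78, 2.65, 2.53 and 2.56. *Fgfr4* had 4.51, 4.37, 4.50 and 4.06. Over coding promoters the median also was highest with SB-431542, at 4.64 against 4.30 to 4.46. The percentile of the *Fgfr2* promoter went from 57.5 under SB-431542 to 44.7 in untreated cells, and the other 3 moved by less than 10 points in every comparison.

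Feedback gene promoters had a median of 3.29, 3.41, 3.21 and 3.23. *Spry1* stood at 4.89, 4.62, 4.68 and 4.78, *Spry2* between 3.13 and 3.26 and *Spred1* between 3.11 and 3.20, and all 3 differed little between lists. *Spry4* stood at 3.32, 3.30, 2.90 and 2.66 and *Spred2* at 2.96, 2.76, 2.84 and 2.64, both lowest in untreated cells. *Dusp6*, the ERK phosphatase, stood at 3.27, 3.53, 3.37 and 3.21, highest after 1 h Activin. The PEA3 factors differed from each other: *Etv4* had 4.07, 4.02, 3.23 and 3.55, lowest after 8 h Activin, and *Etv5* had 3.91, 4.02, 4.37 and 4.01, highest after 8 h Activin.

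Distal regions were examined next. The 414 regions comprised 34 at member promoters, 31 at promoters of other genes, 15 in exons, 155 in introns and 179 between genes. Of the intronic regions 107 lay in a member. For 310 regions the nearest coding start site was that of a member, and for the rest another gene lay closer. The number of regions ran from 6 for *Fgf2* to 24 for *Fgf10*, with a median of 13 against 11 over protein-coding genes. *Fgf15* had 23, *Spred2* 22, *Fgf4* 20, *Fgf3* 19 and *Etv5* and *Fgf12* 18 each. The windows of *Fgf3*, *Fgf4* and *Fgf15*, which are neighbours on chromosome 7, overlap, as do those of *Fgf6* and *Fgf23* on chromosome 6, and 25 regions counted for 2 or more of them.

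**Figure D2:**
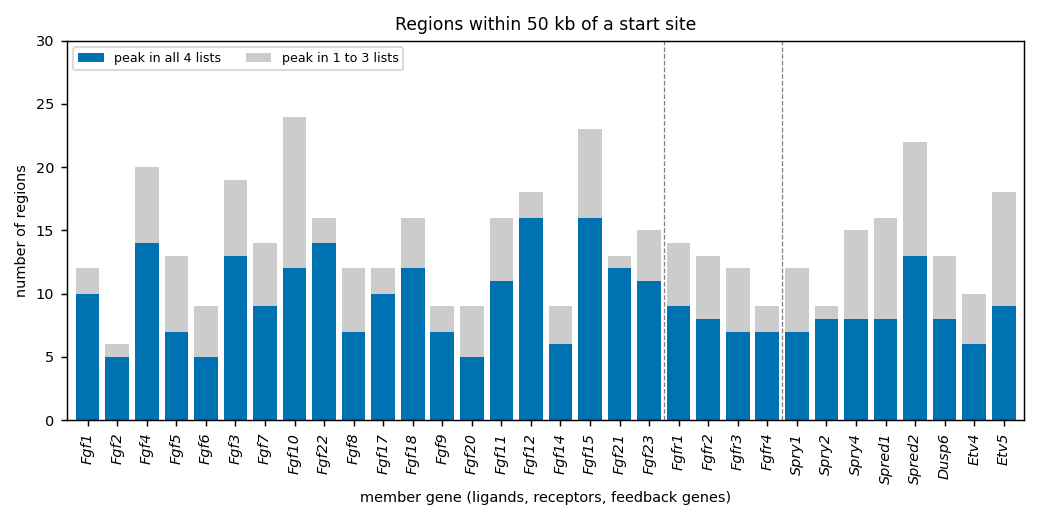
Number of regions (vertical axis) within 50 kb of a start site of each member, split into those with a peak in all 4 lists (blue) and in 1 to 3 lists (grey), with dashed lines between ligands, receptors and feedback genes. *Fgf10* had the most regions, 12 of its 24 in all lists, and *Fgf2* the fewest, 5 of 6 in all lists.

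A peak in every list was found in 276 of the 414 regions, which is 66.7% (Wilson 95% interval 62.0% to 71.0%, counting error only), beside 62.1% of regions near any coding start site. The share was 70.9% for ligands, 64.6% for receptors and 58.3% for feedback genes. Intervals were 65.0% to 76.2% for ligands, 50.4% to 76.6% for receptors and 49.1% to 66.9% for feedback genes, and regions of the same gene are not independent. All 34 member promoter regions were shared by the 4 lists, so every gained or lost member region lay elsewhere. Outside promoters 213 of 349 regions were shared (61.0%).

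The comparison with SB-431542 asks which regions differ from the inhibited state after 1 h Activin, after 8 h Activin or in the chronic state. The SB-431542 cells were kept for 1 h after washout, as long as the 1 h Activin cells. The 8 h Activin cells spent longer after washout, and untreated cells had neither inhibitor nor washout. In those states signalling cannot be told apart from time or handling. Shared regions were called higher or lower where the percentile differed from SB-431542 by more than 10 points. After 1 h Activin 26 of the 276 were higher (9.42%; background over coding genes 8.44%) and 29 lower (10.5%; background 11.7%). After 8 h Activin 48 were higher (17.4%; background 14.5%) and 33 lower (12.0%; background 17.5%). In untreated cells 53 were higher (19.2%; background 16.0%) and 42 lower (15.2%; background 17.5%). More member regions thus differed at 8 h and in untreated cells than at 1 h, as in the background. The shares were within a few points of the background except for lower regions after 8 h Activin, which were fewer in the members. That difference depended on the setting and was not tested. With a minimum −log10 q of 5 the lower regions were 43 of 228, beside a background of 20.5%. Ranked by estimated pileup they were 21 of 276, beside 13%. The median shift of member regions was 1.11, -0.36 and -0.19 points in the 3 lists, beside 0.29, -0.68 and -0.27 over coding genes.

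Gained regions had a peak in the signalling list and none with SB-431542, and lost regions the reverse. After 1 h Activin 18 of 414 regions were gained (4.35%; background 5.82%) and 41 lost (9.90%; background 10.4%). After 8 h Activin 35 were gained (8.45%; background 7.82%) and 54 lost (13.0%; background 14.9%). In untreated cells 35 were gained (8.45%; background 9.65%) and 49 lost (11.8%; background 14.2%). These shares too were near the background. A peak in the 8 h Activin and untreated lists alone was found in 16 member regions (3.86% against 2.94% over coding genes), and a peak in the SB-431542 and 1 h Activin lists alone in 20 (4.83% against 5.55%).

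By role, the feedback genes had the highest shares of higher and of lost regions after 8 h Activin and in untreated cells. These differences between roles were not tested. With SB-431542 the shared regions of the feedback genes had a median percentile of 51.6, beside 62.5 over coding genes. The bearing of this starting rank on the shares was not tested. Of the 67 shared regions of the feedback genes 16 were higher after 8 h Activin (23.9%; background 14.5%) and 18 in untreated cells (26.9%; background 16.0%). Lower regions were 8 (11.9%; background 17.5%) and 12 (17.9%; background 17.5%). Of their 115 regions 23 were lost after 8 h Activin (20.0%; background 14.9%) and 24 in untreated cells (20.9%; background 14.2%). Gains were 2 after 1 h Activin (1.74%; background 5.82%) and 12 after 8 h Activin (10.4%; background 7.82%). The losses lay mainly at 3 genes, *Spred2* with 6 after 8 h Activin, *Spry4* with 5 and *Etv5* with 4. Ligand regions were higher in 15.7% of cases both after 8 h Activin and in untreated cells, and receptor regions in 12.9% and 22.6%, beside the same background of 14.5% and 16.0%. Within the ligands, the FGF7 subfamily had 13 of 48 shared regions higher after 8 h Activin (27.1%), and the FGF1 subfamily 1 of 15 (6.67%), against 14.5%. The FGF4 subfamily had 7 of 26 (26.9%) and the FGF9 subfamily 3 of 12 (25%), and the remaining subfamilies lay between 9.09% and 17.2%. These groups are small and overlap. Of the 19 *Fgf3* regions, counted in the FGF7 subfamily, 15 also lie in the window of another member.

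**Figure D3:**
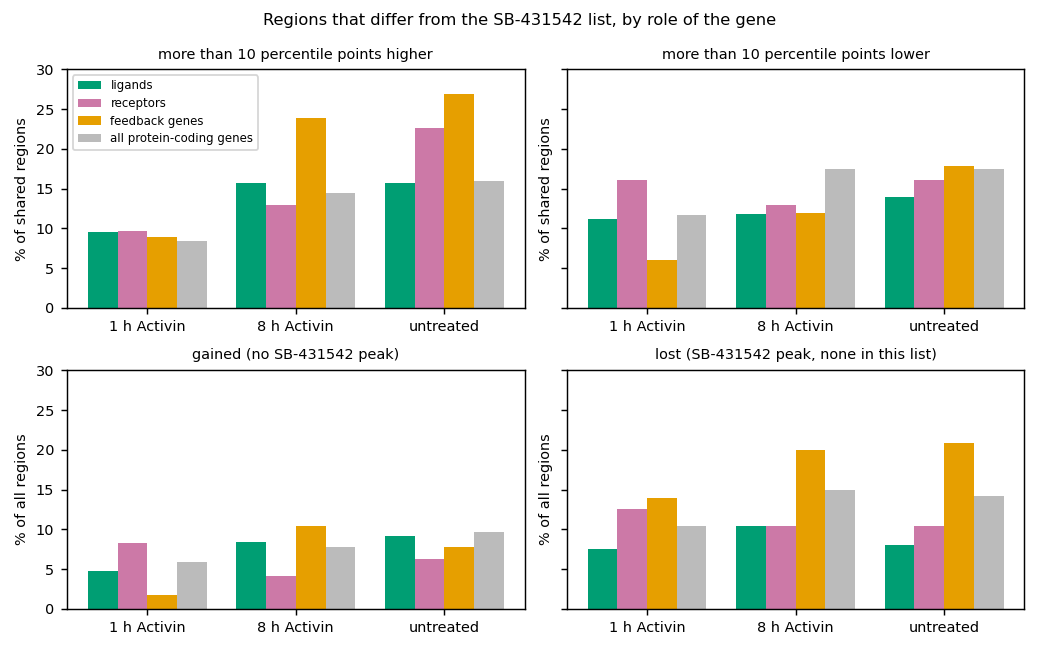
Share of regions (vertical axes, percent) that differ from the SB-431542 list in each signalling list, for ligands, receptors, feedback genes and all protein-coding genes (grey). The upper panels use regions shared by the 4 lists and the lower panels all regions; feedback genes stand above the grey bars for higher regions and for losses after 8 h Activin (23.9% and 20.0%) and in untreated cells (26.9% and 20.9%).

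The regions with the largest shifts, 10 upward and 10 downward, are described below with their genes. The *Fgf21* promoter given above was among the downward shifts, and the other 19 regions were distal. Because they were picked by size, their shifts only describe these lists.

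**Figure D4:**
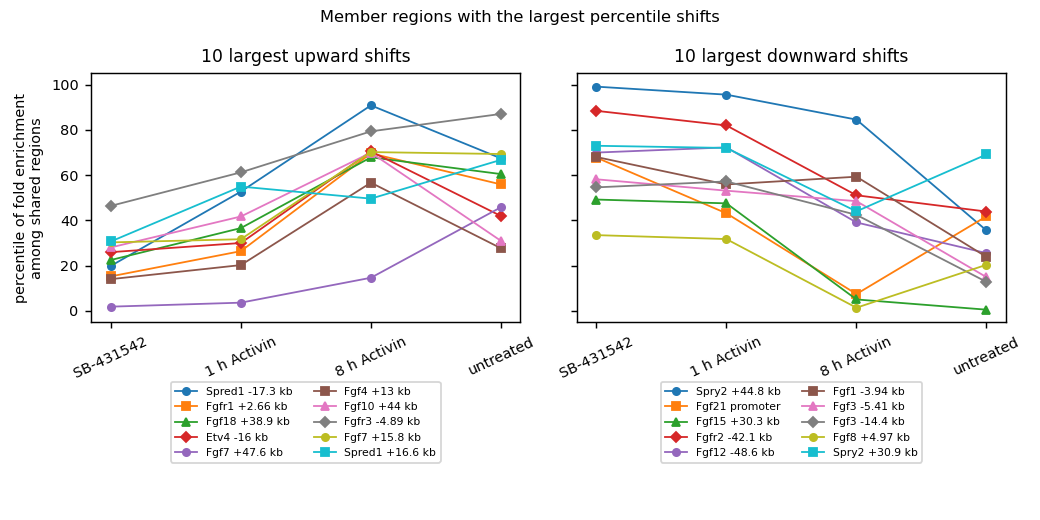
Percentile of fold enrichment among shared regions (vertical axis) in the 4 merged lists for the member regions with the 10 largest upward and the 10 largest downward shifts against SB-431542, labelled by nearest member and distance from its start site (minus is upstream). The *Spred1* region 17.3 kb upstream moved from 19.8 to 90.8 after 8 h Activin, and the *Spry2* region 44.8 kb downstream from 99.1 to 35.5 in untreated cells; lines join lists of the same region and are not a time course through the untreated state.

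The *Spred1* locus held the largest upward shift. The region 17.3 kb upstream, chr2:117103257-117103808, stood at 1.97 under SB-431542, 2.57 after 1 h Activin, 5.13 after 8 h Activin and 3.25 without treatment. The peak was longest where it was strongest, from 321 bp with SB-431542 to 552 bp after 8 h Activin. Its printed sequence holds the TCF/LEF string. An intronic region 16.6 kb downstream stood at 2.17, 2.64, 2.60 and 3.23, with peaks of 285, 355, 1309 and 624 bp. Another, 11.4 kb upstream, had a peak after 8 h Activin alone, with a fold enrichment of 2.68 and a −log10 q of 10.1. The *Spred1* promoter between these regions stayed between 3.11 and 3.20. After 1 h Activin 5 of the 16 *Spred1* regions lacked their SB-431542 peak, against 2 after 8 h Activin.

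The *Spry2* locus held the largest distal downward shift. The region 44.8 kb downstream, chr14:105851165-105851972, stood at 7.74 with SB-431542, 5.71 after 1 h Activin, 4.41 after 8 h Activin and 2.26 in untreated cells. Its −log10 q was 132, 75.7, 35.0 and 6.34, and its peak shortened from 740 bp to 318 bp. The order of the lists was thus the same in height, score and length, apart from a peak of 801 bp after 1 h Activin. It is intergenic and *Spry2* is its nearest coding gene. A neighbour 37.0 kb downstream, singled out after its values were seen, stood at 6.41, 6.02, 6.49 and 6.08. The region 30.9 kb downstream stood at 3.67, 3.34, 2.45 and 3.33, lower after 8 h Activin alone.

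**Figure D5:**
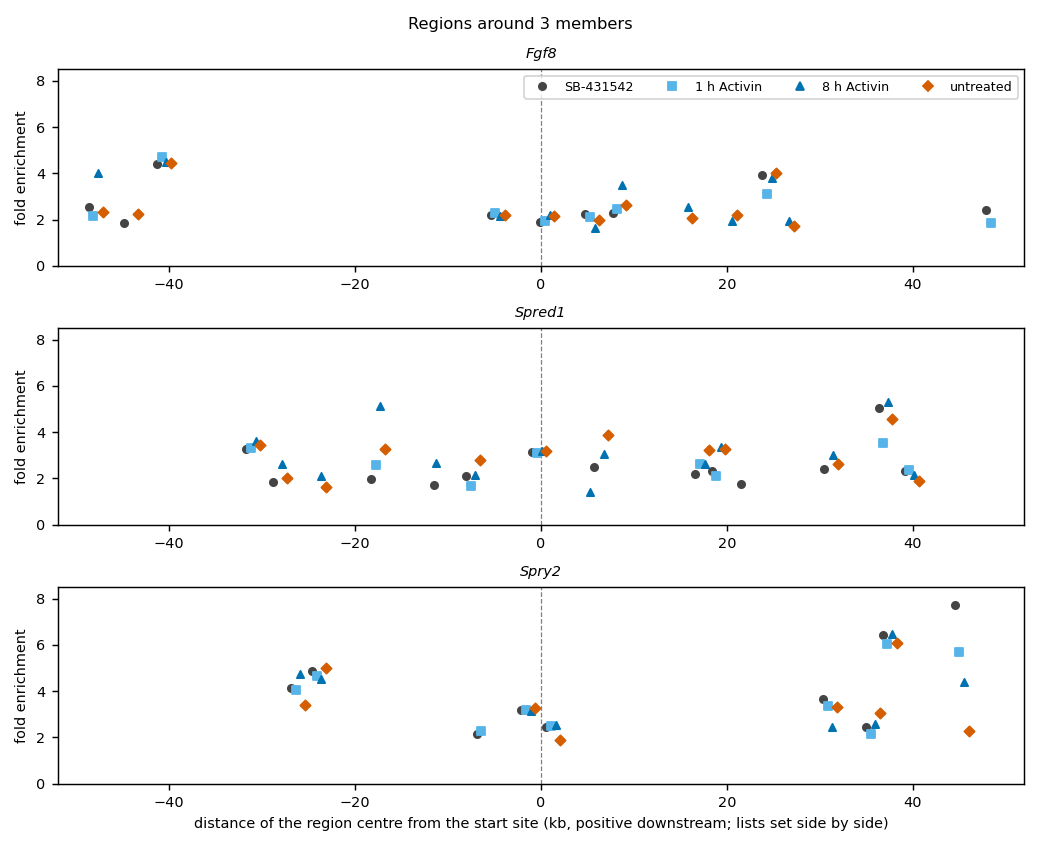
Fold enrichment (vertical axes) of every region within 50 kb of the *Fgf8*, *Spred1* and *Spry2* start sites against its distance from the start site in kb (horizontal axis, dashed line at 0), with 1 point per merged list and no error bars; the 4 lists are offset slightly sideways. The *Spry2* region 44.8 kb downstream runs from 7.74 to 2.26 while that 37.0 kb downstream stays between 6.02 and 6.49, and 3 regions downstream of *Fgf8* have points for 8 h Activin and untreated cells alone.

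Among the other feedback genes, the region 16.0 kb upstream of *Etv4*, chr11:101801352-101801697, had values of 2.08, 2.07, 3.44 and 2.41, highest after 8 h Activin, when the *Etv4* promoter was at its lowest. *Etv5* gained an intronic region 39.6 kb downstream, with 1.78 after 8 h Activin and 2.14 in untreated cells. It lost an intronic region 48.9 kb downstream, which had 2.83 with SB-431542 and 2.52 after 1 h Activin. Another, 3.49 kb downstream, had 2.33, 2.04 and 2.07 in the first 3 lists and no peak in untreated cells. *Spry4* had a peak 15.7 kb upstream with SB-431542 (2.92) and after 1 h Activin (2.19) that the other lists lacked. *Spry1* had such a pair of peaks 34.3 kb upstream, at 2.69 and 2.26. In these last 2 and in the *Etv5* region 48.9 kb downstream, a peak was present after 1 h Activin and absent after 8 h Activin and in untreated cells.

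A peak 43.5 kb upstream of *Spred2* was found with SB-431542 alone at a fold enrichment of 1.19. Its estimated local background was 1832, in reads, beside a median of 34.4 over member regions, and its −log10 q was 13.2. *Dusp6* had no region among the largest shifts. Its other regions include a pair singled out after the values were seen: that 34.5 kb downstream had 4.87, 4.71, 6.29 and 5.49, and that 21.3 kb downstream had 5.05, 5.07, 4.85 and 3.59. The first was highest after 8 h Activin and the other lowest in untreated cells.

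Among receptors, *Fgfr1* had an intronic region 2.66 kb downstream of its start site, chr8:25521415-25521772, at 1.89, 2.01, 3.40 and 2.80. Its estimated local background was 75.5 with SB-431542 and 53.3 after 8 h Activin, and its shift of 54.4 percentile points after 8 h Activin was 14.4 when ranked by estimated pileup. The FOX string in its sequence is near the end of the printed window. *Fgfr1* also had a peak 14.8 kb upstream with SB-431542 (2.94) and after 1 h Activin (3.02) that was absent from the other 2 lists. At *Fgfr2* the region 42.1 kb upstream, chr7:130308928-130309846, stood at 4.92, 3.98, 2.65 and 2.46. A peak 2.41 kb upstream of *Fgfr2* was found after 1 h Activin alone, at 1.79. The *Fgfr3* region 4.89 kb upstream stood at 2.56, 2.85, 3.99 and 4.51, but its peak was 2362 bp long with SB-431542 and 326 bp in untreated cells, so these means cover different lengths. Its shift of 40.6 points in untreated cells was 10.2 by estimated pileup. *Fgfr4* had no region among the largest shifts, and its strongest, 36.7 kb downstream, lay between 5.29 and 5.70.

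At the neighbouring ligand genes *Fgf3*, *Fgf4* and *Fgf15*, both directions were seen. The region 13.0 kb downstream of *Fgf4*, chr7:144874365-144875639, stood at 1.87, 1.92, 2.83 and 2.11. The regions 5.41 kb and 14.4 kb upstream of *Fgf3* were lowest in untreated cells, at 2.96, 2.58, 2.57 and 1.90 for the nearer and 2.83, 2.71, 2.41 and 1.86 for the farther. The nearer peak was 824 bp long with SB-431542 and 203 bp in untreated cells. Another, 26.7 kb upstream of *Fgf3*, had 3.43 and 2.61 in the first 2 lists, no peak after 8 h Activin and 2.24 in untreated cells. The region 30.3 kb downstream of *Fgf15* stood at 2.65, 2.42, 1.74 and 1.60, but its nearest coding gene is *Ccnd1*, which encodes cyclin D1. Its shift in untreated cells was -48.7 points, and -24.8 by estimated pileup.

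*Fgf8*, which acts with NODAL in the primitive streak, had 3 regions between 15.4 kb and 26.2 kb downstream of its start site that had peaks in the 8 h Activin and untreated lists and in neither of the others. They were noticed after the values were seen. The region 15.4 kb downstream had 2.52 and 2.06, that 20.1 kb downstream 1.92 and 2.22, and that 26.2 kb downstream 1.94 and 1.70. The region 7.08 kb downstream stood at 2.28, 2.47, 3.50 and 2.64. An intronic region 4.97 kb downstream, listed among the largest downward shifts, stood at 2.23, 2.10, 1.65 and 1.99. Its direction turned when regions were ranked by estimated pileup, which put it 8.5 points higher after 8 h Activin.

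In the FGF7 subfamily, *Fgf7* had 2 intronic regions that were stronger later, both also inside *Fam227b*. That 15.8 kb downstream stood at 2.16, 2.10, 3.42 and 3.34, and that 47.6 kb downstream at 1.63, 1.66, 1.89 and 2.51. *Fgf10*, the mesenchymal ligand for FGFR2, had an intronic region 44.0 kb downstream at 2.12, 2.29, 3.41 and 2.17. Close to it, 46.7 kb downstream, chr13:118761355-118761648 had a peak after 8 h Activin alone, with a fold enrichment of 2.66 and a −log10 q of 15.1. This is the window that holds the FOXH1 string. Both *Fgf10* regions were thus highest after 8 h Activin, and in untreated cells the first was near its SB-431542 value and the other had no peak.

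Of the remaining ligands, *Fgf18* had a region 38.9 kb downstream at 2.02, 2.18, 3.31 and 2.97, whose peak was 570 bp long with SB-431542 and 1636 bp after 8 h Activin. It also had a peak 38.0 kb upstream, nearest to *Tlx3*, at 3.08, 2.30, none and 1.69. *Fgf17* gained a region 1.12 kb upstream of its start site, chr14:70643393-70643662, at 2.33 after 8 h Activin and 2.63 in untreated cells, beside a promoter that was lowest in untreated cells. *Fgf5* gained a region 41.3 kb upstream, at 2.33 and 2.65, for which *Prdm8* is the nearest coding gene. *Fgf11* gained a region 12.5 kb downstream in an intron of *Chrnb1*, at 1.96 and 2.94. *Fgf1* gained a region 2.26 kb upstream, at 2.88 and 2.51, and had another 3.94 kb upstream at 3.40, 2.67, 2.93 and 2.04. *Fgf12* had a region 48.6 kb upstream of its outermost start site at 3.50, 3.35, 2.33 and 2.07.

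Near *Fgf9*, *Fgf20*, *Fgf2*, *Fgf6*, *Fgf14*, *Fgf21*, *Fgf22* and *Fgf23* no distal region was among the largest shifts or the strongest gains and losses. *Fgf6*, with a closed promoter, still had 9 regions in its window, among them an intronic region 3.5 kb downstream at 3.78, 3.50, 3.69 and 3.54. *Fgf14* had a strong intronic region 6.72 kb downstream, at 8.02, 8.75, 7.65 and 6.87, within the top percentiles of every list. Both regions were picked out after the values were seen.

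In the central windows of shared member regions, AP-1 strings were found in 4 of 48 that were higher after 8 h Activin (8.33%) and 6 of 33 that were lower (18.2%). Over coding genes the shares were 7.22% and 15.4%. TCF/LEF strings were found in 6 of the 48 higher (12.5%) and 2 of the 33 lower (6.06%), beside 6.56% and 3.64%. In untreated cells the TCF/LEF counts were 3 of 53 higher (5.66%) and 2 of 42 lower (4.76%), beside 5.03% and 4.16%. AP-1 counts there were 4 (7.55%) and 5 (11.9%), beside 7.64% and 15.2%. ZIC strings after 8 h Activin were in 8 of the higher (16.7%) and 7 of the lower (21.2%), beside 16.0% and 12.8%. These are counts of letters in a window and were not tested.

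The rest of the pathway was described in the same way from 3 lists: co-receptors and ligand-binding proteins, transducers from adaptors to ERK, and other feedback and response genes. The gene *Spry3* was not matched in the annotation. Of 37 such genes 36 had an open promoter in every list. All 15 transducers and all 14 other feedback genes did, and among 8 co-receptor genes the exception was *Klb*, which encodes β-Klotho, the co-receptor for FGF21 and FGF15. Their 467 regions were shared by the 4 lists in 65.5% of cases. After 8 h Activin 35 of 306 shared regions were higher (11.4%; background 14.5%) and 49 lower (16.0%; background 17.5%). In untreated cells 37 were higher (12.1%; background 16.0%) and 51 lower (16.7%; background 17.5%). The other feedback and response genes lacked the high shares of the feedback members. After 8 h Activin 13.2% of their shared regions were higher and 22.3% lower, and 11.8% of their regions were lost. In untreated cells these shares were 11.6%, 20.7% and 12.8%. Lower regions outnumbered higher ones in the 3 pathway lists pooled, as they did over all coding genes. The transducers alone went the other way, with 13 higher and 12 lower after 8 h Activin and 13 and 10 in untreated cells. In the members too the higher outnumbered the lower, 48 to 33 after 8 h Activin and 53 to 42 in untreated cells. Over the whole series the counts were 30322 to 29986 and 32339 to 30504, so an excess of higher regions was not particular to the members. The excess in the members was 45 to 43 after 8 h Activin with a minimum −log10 q of 5. It was 11 to 11 in untreated cells in a window of 10 kb, and it was not tested.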

How the data were processed

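ATAC-seq libraries from P19 cells in 4 states were processed by the authors. Per their notes, reads were trimmed with cutadapt 1.9.1, aligned to mm10 with BWA 0.6.2, merged over all libraries of a state and deduplicated with Picard, and broad peaks were called on the merged reads with MACS2 2.1.1.20160309 without a control. The deposited lists give for each peak a fold enrichment (a ratio), a score, and −log10 p and −log10 q values as the authors' caller wrote them. Read totals were not used here.

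Peaks were joined into regions with Python 3.11.15, pandas 2.3.3 and scipy 1.17.1, and annotated with 45756 RefSeq transcripts of GRCm38.p6. A region was ranked by its highest fold enrichment, and percentiles were taken among the 162505 regions shared by the 4 lists. The local background and pileup of a peak were solved from its fold enrichment and −log10 p under a Poisson model, and pileup ratios were used as an alternative. The joining and the percentiles were tested on simulated lists, and this solution on simulated single values. The deposited values are means over a peak, and the error of the solution on such means was not tested. A merged list per state leaves no replicate spread, so no p-value between states was computed.

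The regions given in full follow a rule: every member promoter, the 10 largest upward and 10 largest downward percentile shifts, and the 8 gained and 8 lost regions with the highest −log10 q. The members and lists were chosen with earlier results of these data known. Alternatives changed the minimum q, the list length, the joining distance, the coverage that counts as present, the window, the promoter definition, the ranking measure and the size of shift.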

Additional observations from a re-analysis of the deposited data

How the results depend on the processing

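Of 204 counts over the members recomputed under 11 alternatives, 175 stayed within 1.5 times the reported value. Many of these could not change. The ranking measure and the size of shift enter only the higher and lower counts, and the promoter definition only the promoter counts. The window, the joining distance and the coverage do not enter the promoter counts. The 175 therefore includes counts that were fixed in advance. Backgrounds below are shares over regions near coding start sites under the same alternative. With a minimum −log10 q of 5, gains were 4 of 328 after 1 h Activin and 19 after 8 h Activin (background 2.32% and 5.42%). Where a list had to cover 50% of a region, gains were 28, 54 and 56 of 414 (1 h Activin, 8 h Activin, untreated). The backgrounds were 8.62%, 10.9% and 13.6%. Higher regions after 1 h Activin were then 15 of 212 (background 6.8%). A window of 10 kb left 103 regions, 75 of them in all lists. In it gains were 6, 9 and 7 (background 4.4%, 6.41% and 7.78%) and losses 6, 8 and 9 (7.92%, 10.9% and 10.4%). Higher regions were 8, 11 and 11 (6.9%, 10.2% and 11.7%) and lower regions 6, 6 and 11 (8.01%, 13.6% and 13.5%). Higher regions after 1 h Activin were 17 when ranked by −log10 q (background 6.27%) and 11 when ranked by estimated pileup (background 4.83%). The ranking by estimated pileup also gave 21 lower regions after 8 h Activin (background 13%). With shifts of more than 20 points, higher regions were 6, 21 and 22 of 276 (background 1.51%, 5.43% and 5.87%). Lower regions were 5, 14 and 15 (background 2.48%, 6.66% and 7.26%). The smaller window and the larger shift lower counts by construction, and the cause of the other differences was not tested. The count of open promoters, which only the minimum q, the list length and the promoter definition could change, stayed within 1.5 times under each of them. Restricting to regions with no more than 1 peak per list, an alternative chosen after seeing the data, moved no count by over 1.5 times. Of the 20 largest shifts, 19 kept their direction and exceeded 10 points under the 3 other rankings. These regions all had 1 peak per list, where the width-weighted mean fold enrichment equals the main measure, so that ranking is no separate check. The other rankings, by −log10 q and by estimated pileup, come from the same peaks. By estimated pileup the shift was 14.4 instead of 54.4 points for the *Fgfr1* intronic region, 10.2 instead of 40.6 for the *Fgfr3* region and -24.8 instead of -48.7 for the *Fgf15* region, and the *Fgf8* intronic region was 8.5 points higher after 8 h Activin by estimated pileup. No paired analysis was possible because each list merges both replicates. The lists were not equally deep, so a peak missing from the 8 h Activin or untreated list may be below detection rather than absent.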
